A study of Mus musculus with 12 samples.

Results

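The genes described here are 10 targets of the tumour suppressor p53, Cdkn1a, Ccng1, Mdm2, Fas, Perp, Phlda3, Trp53inp1, Pmaip1, Bbc3 and Sesn2, out of 22180 genes measured. Each was represented by the probe set annotated with its symbol alone, and all 10 had 1 such probe set. RNA had been measured on 12 mouse expression arrays, 2 for each of 6 groups. Lines derived from post-implantation embryos in different media were compared with each other, with embryonic stem cells and with the epiblast, the embryonic tissue from which such lines come.

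The rsEpiSC E6.5 and rsEpiSC E5.75 lines were derived from embryos of day 6.5 and day 5.75 and grown with 20 ng/ml of a factor that the labels leave unnamed and 2.5 µM IWR1, an inhibitor of Wnt signalling through tankyrase. Other label fields call both of them intrinsic state epiblast stem cells. The EpiSC line, a primed pluripotent line of day 5.75, was grown in 12 ng/ml FGF2, 20 ng/ml Activin A and 20% serum replacement. The ESC line, a naive pluripotent line of day 3.5, was grown in N2B27 with 3 µM CHIR99021, 1 µM PD0325901 and 10 µg/ml LIF. The tissue groups were epiblast of E6.5 and epiblast of E5.75. The cultured lines were all kept on mouse embryonic fibroblast feeders, and the strain field of every sample names an OCT4-deltaPE-GFP reporter and C57BL. The number after C57BL is 6 for EpiSC and ESC and a different one, from 7 to 14, on each other array, and whether these are separate substrains is not stated. Passages in the labels start at 20 and end at 28 and 29 for the rsEpiSC E6.5 arrays, at 26 and 27 for rsEpiSC E5.75 and at 25 for EpiSC and ESC. The labels do not say whether the 2 arrays of a group came from separate cultures or embryos, and the p-values therefore cover only the spread among these arrays, which may be technical.

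The p53 protein is a transcription factor that is held at a low level by the ubiquitin ligase Mdm2 and accumulates when DNA is damaged or growth is stressed. It binds response elements made of a pair of short half-sites and raises the transcription of genes that stop the cell cycle, repair DNA, trigger apoptosis or adjust metabolism, and also of Mdm2, which closes a negative feedback loop. In the early mouse epiblast, whose cells divide fast, p53 is known for its part in the removal of damaged or less fit cells.

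The promoters with a match to the p53 half-site are shown here, because p53 binds DNA through such half-sites. RefSeq start sites on GRCm38.p6 gave 10 windows for 7 of the 10 genes, each of 300 bases from 250 before to 50 after a start, and both strands were searched. The genes with a window were Cdkn1a, Mdm2, Fas, Phlda3, Sesn2, Ccng1 and Bbc3. The 250 bases before the first listed start of Cdkn1a (chr17:29090729-29090978, plus strand), the start of Mdm2 (chr10:117710759-117711008, minus strand) and the start of Ccng1 (chr11:40755287-40755536, minus strand) are printed 5′ to 3′ on the strand of the gene. Capitals mark bases in a match to the p53 half-site consensus or to the motif CATGNNNNNNCATG, which spells a pair of half-site cores of the CATG form.
Cdkn1a: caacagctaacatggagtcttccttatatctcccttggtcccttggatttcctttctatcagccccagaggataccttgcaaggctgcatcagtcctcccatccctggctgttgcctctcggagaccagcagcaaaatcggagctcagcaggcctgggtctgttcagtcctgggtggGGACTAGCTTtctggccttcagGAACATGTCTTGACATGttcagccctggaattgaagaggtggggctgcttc
Mdm2: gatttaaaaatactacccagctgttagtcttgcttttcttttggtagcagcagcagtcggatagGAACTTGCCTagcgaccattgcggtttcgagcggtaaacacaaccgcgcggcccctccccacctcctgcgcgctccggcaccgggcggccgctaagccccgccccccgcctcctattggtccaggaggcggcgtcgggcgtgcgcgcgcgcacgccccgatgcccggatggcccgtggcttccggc
Ccng1: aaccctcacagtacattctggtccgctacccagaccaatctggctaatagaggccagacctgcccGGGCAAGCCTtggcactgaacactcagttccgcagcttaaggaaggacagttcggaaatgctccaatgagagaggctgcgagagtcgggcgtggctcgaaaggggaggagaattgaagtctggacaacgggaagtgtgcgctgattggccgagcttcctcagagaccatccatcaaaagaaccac
The Cdkn1a window held 2 half-site matches with a spacer of 12 bases, GGACTAGCTT and GAACATGTCT, and CATGTCTTGACATG overlapped the second of them, at positions -48 to -35 counted from the start. The Mdm2 window held GAACTTGCCT at -186 to -177, and the Ccng1 window GGGCAAGCCT at -185 to -176. Among all 32851 promoter windows of this length, 8.36% held a half-site match, 0.0731% held 2 half-sites at most 13 bases apart, and 0.712% held CATGNNNNNNCATG. The windows of Fas, Phlda3, Sesn2 and Bbc3 and the second Cdkn1a window held no match to any of these. A match is a description of the sequence and not a measured site.

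The values are log2 signals, so a difference of 1 is a factor of 2, and a difference is always the first group named minus the second. Replicate arrays correlated at 0.943 to 0.988 over all genes, and the spread between replicates (root mean square SD over all genes) ran between 0.242 in rsEpiSC E6.5 and 0.464 in epiblast E5.75. For the 10 p53 targets the spread was 0.371 to 0.682 in the 4 cultured groups, 0.407 in epiblast E6.5 and 0.914 in epiblast E5.75. On epiblast E5.75 replicate 2, 9 of the 10 targets were higher than on replicate 1, against 49.7% of all genes. Markers of naive cells averaged 9.20 to 9.41 on the ESC arrays against 3.92 to 4.62 on the others, and markers of pluripotent cells averaged 6.70 to 8.64 on all arrays. That average joins 7 genes that differed between lines in both directions. At an adjusted p under 0.05, 2 rose in rsEpiSC E5.75 against EpiSC, Sox2 (3.26 ± 0.24) and Lin28a (1.97 ± 0.29). There 3 fell, Utf1 (-4.39 ± 0.37), Nanog (-3.47 ± 0.35) and Pou5f1 (-1.47 ± 0.33). In rsEpiSC E6.5 against EpiSC 2 rose and 1 fell, Nanog (-2.41 ± 0.35). Of all genes 1.56% were higher and 2.31% lower in the former comparison, and 1.33% and 2.56% in the latter. Against epiblast E5.75, 2 rose and 4 fell in rsEpiSC E5.75, among them Nanog (-1.97 ± 0.35) and Pou5f1 (-1.36 ± 0.33), with 11.5% of all genes higher and 10% lower. Markers of post-implantation epiblast averaged 8.01 to 8.95 on rsEpiSC E6.5, 6.88 to 7.16 on rsEpiSC E5.75, 6.77 to 8.01 on EpiSC and 5.29 to 6.06 on ESC, against 8.99 to 9.31 on the tissue arrays. Markers of visceral endoderm averaged 3.95 to 4.36 on all arrays, and those of extraembryonic ectoderm and trophoblast 5.02 to 6.21, highest in EpiSC. In RNA of whole cultures and of tissue, fewer cells of a type and less RNA per cell cannot be told apart.

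Cdkn1a encodes p21, the inhibitor of cyclin-dependent kinases that carries out much of the p53 cell cycle arrest. Its log2 signal was 8.28 and 9.41 on the rsEpiSC E6.5 arrays, 9.48 and 9.79 on rsEpiSC E5.75, 11.05 and 10.86 on EpiSC and 10.98 and 10.82 on ESC, against 6.09 and 5.92 on epiblast E6.5 and 5.25 and 6.96 on epiblast E5.75. All 8 cultured arrays lay above all 4 tissue arrays. EpiSC and ESC overlapped at the top, and the rsEpiSC groups stood between them and the tissue without touching either.

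Ccng1 encodes cyclin G1, an atypical cyclin that recruits a phosphatase to Mdm2. Its signal was 9.78 and 10.22 on rsEpiSC E6.5, 10.29 and 10.36 on rsEpiSC E5.75, 11.11 and 10.96 on EpiSC and 10.79 and 10.83 on ESC, against 9.43 and 9.45 on epiblast E6.5 and 9.67 and 10.20 on epiblast E5.75. The order of the group means was that of Cdkn1a, EpiSC, ESC, rsEpiSC E5.75, rsEpiSC E6.5, epiblast E5.75 and epiblast E6.5. Between rsEpiSC E6.5 and epiblast E5.75 the arrays overlapped.

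Mdm2 had signals of 7.22 and 7.03 on rsEpiSC E6.5, 7.30 and 7.47 on rsEpiSC E5.75, 9.27 and 9.18 on EpiSC and 8.65 and 9.28 on ESC, against 7.13 and 7.56 on epiblast E6.5 and 7.09 and 7.88 on epiblast E5.75. The arrays fell into a high pair of groups, EpiSC and ESC, and a low set of 4 groups, both rsEpiSC groups and both tissues, within which neighbouring groups overlapped.

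Fas, the cell surface receptor that starts apoptosis when its ligand binds, had signals of 3.36 and 3.86 on rsEpiSC E6.5, 3.58 and 3.17 on rsEpiSC E5.75, 6.13 and 5.26 on EpiSC and 3.64 and 3.91 on ESC, against 3.59 and 3.40 on epiblast E6.5 and 3.30 and 3.32 on epiblast E5.75. EpiSC stood alone. The other five groups overlapped with their neighbours over a span of less than 1 log2 unit, and the deposited values carry no detection call that would say whether this is signal above background.

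Perp, a tetraspan membrane protein of cell junctions that also promotes apoptosis, had signals of 5.88 and 6.32 on rsEpiSC E6.5, 5.14 and 6.48 on rsEpiSC E5.75, 8.84 and 8.38 on EpiSC and 7.93 and 6.59 on ESC, against 5.90 and 4.46 on epiblast E6.5 and 4.43 and 6.53 on epiblast E5.75. EpiSC was highest without overlap and ESC next. The rsEpiSC and tissue arrays mixed, with the replicates of both tissues more than 1 log2 unit apart.

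Phlda3, a repressor of the survival kinase Akt, had signals of 7.49 and 7.65 on rsEpiSC E6.5, 7.82 and 7.72 on rsEpiSC E5.75, 8.94 and 9.59 on EpiSC and 7.73 and 8.73 on ESC, against 6.00 and 6.41 on epiblast E6.5 and 6.74 and 7.10 on epiblast E5.75. Every cultured array was above every tissue array. EpiSC was highest without overlap, and epiblast E6.5 was lowest.

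Trp53inp1, a nuclear protein that promotes p53-driven arrest and death, had signals of 6.84 and 7.38 on rsEpiSC E6.5, 7.87 and 7.97 on rsEpiSC E5.75, 9.43 and 8.84 on EpiSC and 8.77 and 9.48 on ESC, against 4.98 and 5.03 on epiblast E6.5 and 5.01 and 7.17 on epiblast E5.75. EpiSC and ESC overlapped at the top. One tissue array, epiblast E5.75 replicate 2, lay among the rsEpiSC E6.5 arrays, while the other three tissue arrays were the lowest of all 12.

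Pmaip1 and Bbc3 encode Noxa and Puma, BH3-only proteins that release the mitochondrial arm of apoptosis. Pmaip1 had signals of 4.52 and 4.47 on rsEpiSC E6.5, 4.20 and 4.05 on rsEpiSC E5.75, 4.71 and 3.69 on EpiSC and 5.66 and 7.83 on ESC, against 7.42 and 7.92 on epiblast E6.5 and 6.90 and 6.61 on epiblast E5.75. Its group mean was highest in epiblast E6.5 and lowest in the rsEpiSC and EpiSC groups, whose arrays all lay below every ESC and tissue array, and its ESC arrays were 2.17 log2 units apart. Bbc3 had signals of 4.98 and 4.98 on rsEpiSC E6.5, 5.22 and 4.77 on rsEpiSC E5.75, 6.03 and 4.83 on EpiSC and 5.03 and 5.76 on ESC, against 4.32 and 4.40 on epiblast E6.5 and 4.33 and 4.73 on epiblast E5.75. Its cultured arrays were all above its tissue arrays, and the 4 cultured groups could not be ordered beyond their spread.

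Sesn2 encodes a sestrin that restrains the growth kinase mTORC1 under oxidative and nutrient stress. It had signals of 8.06 and 7.38 on rsEpiSC E6.5, 6.15 and 7.10 on rsEpiSC E5.75, 7.13 and 7.53 on EpiSC and 8.20 and 7.71 on ESC, against 4.29 and 5.03 on epiblast E6.5 and 3.51 and 5.36 on epiblast E5.75. Every cultured array was above every tissue array. ESC, rsEpiSC E6.5 and EpiSC overlapped with their neighbours, and rsEpiSC E5.75 lay just below EpiSC.

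**Figure D1:**
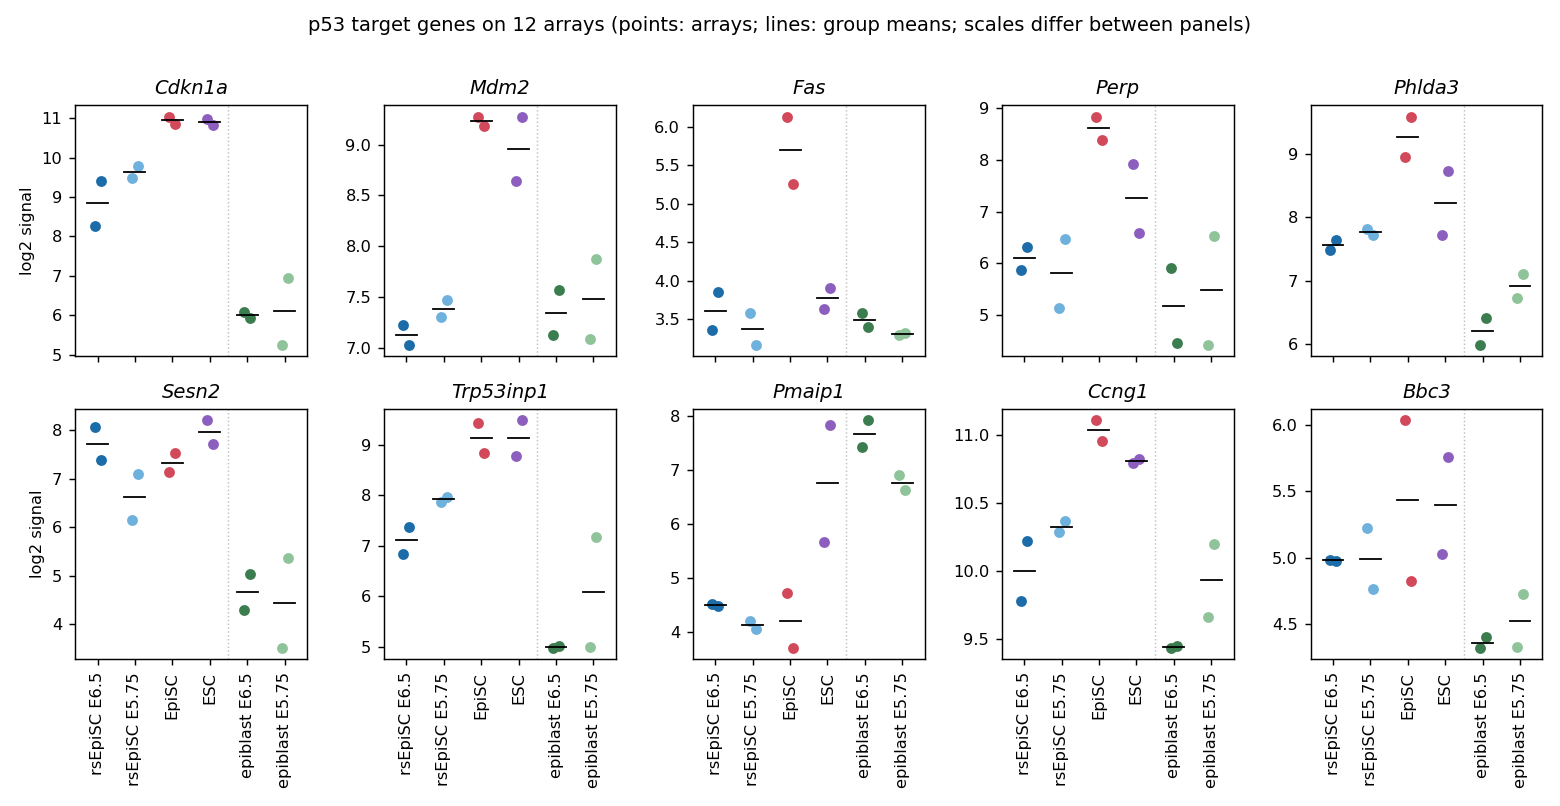
Log2 signal of the 10 p53 target genes (vertical axes, with a scale of its own in each panel) in the 6 groups; points are arrays, 2 in each group, horizontal lines are group means and the dotted line separates cultures from tissue. Cdkn1a, Phlda3, Sesn2 and Bbc3 were higher on all 8 cultured arrays than on all 4 tissue arrays, Fas stood out in EpiSC, and Pmaip1 was lowest in the rsEpiSC and EpiSC groups.

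The comparison of rsEpiSC with EpiSC sets lines kept in different media side by side. The strain number and the last passage in the labels differ between them too, so the medium cannot be told apart from the line. For the lines of one stage, rsEpiSC E5.75 against EpiSC, 4 of the 10 targets fell and none rose at an adjusted p under 0.05, where 3.87% of all genes passed, 1.56% higher and 2.31% lower. Those that fell were Fas by 4.97-fold (log2 difference -2.31 ± 0.31 SE, adjusted p = 0.00124), Mdm2 by 3.59-fold (-1.84 ± 0.31, adjusted p = 0.00540), Phlda3 by 2.82-fold (-1.49 ± 0.35, adjusted p = 0.0322) and Perp by 6.97-fold (-2.80 ± 0.70, adjusted p = 0.0471). The other six had negative differences that did not pass, among them Cdkn1a (-1.31 ± 0.47, adjusted p = 0.189), Trp53inp1 (-1.22 ± 0.54, adjusted p = 0.342) and Ccng1 (-0.71 ± 0.20, adjusted p = 0.0902), and the smallest was that of Pmaip1 (-0.08 ± 0.55, adjusted p = 0.991). The median difference of the 10 was -1.26, against 0.02 over all genes. On 8 of the 10 both rsEpiSC E5.75 arrays were below both EpiSC arrays, which was the case for 22.4% of all genes.

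In rsEpiSC E6.5 against EpiSC, where stage and medium differ together, 5 of the 10 fell and none rose, with 3.89% of all genes passing, 1.33% higher and 2.56% lower. They were Mdm2, 4.29-fold lower (log2 difference -2.10 ± 0.31 SE, adjusted p = 0.00266), Fas, 4.24-fold lower (-2.09 ± 0.31, adjusted p = 0.00257), Cdkn1a, 4.31-fold lower (-2.11 ± 0.47, adjusted p = 0.0273), Phlda3, 3.24-fold lower (-1.70 ± 0.35, adjusted p = 0.0177), and Ccng1, 2.05-fold lower (-1.03 ± 0.20, adjusted p = 0.0151). Perp (-2.51 ± 0.70, adjusted p = 0.0755) and Trp53inp1 (-2.03 ± 0.54, adjusted p = 0.0628) had differences of like size with larger errors and did not pass. Sesn2 (0.39 ± 0.54, adjusted p = 0.901), Pmaip1 (0.29 ± 0.55, adjusted p = 0.942) and Bbc3 (-0.45 ± 0.38, adjusted p = 0.757) overlapped between the groups. The median was -1.86, against 0.02 over all genes, and 7 of the 10 were lower without overlap, against 24% of all genes. Both comparisons use the same EpiSC arrays, so they are not independent of each other.

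These calls rested on few arrays. With each of the 4 arrays of a comparison left out in turn, Fas passed in 4 of 4 fits in both comparisons, and Mdm2 in 3 of 4 for rsEpiSC E5.75 and in 4 of 4 for rsEpiSC E6.5. Perp and Phlda3 passed in 0 of 4 fits for rsEpiSC E5.75. For rsEpiSC E6.5, Cdkn1a and Phlda3 passed in 1 of 4 and Ccng1 in 2 of 4, the difference of Cdkn1a ranging from -2.68 to -1.54.

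The feeder cells are another source of RNA in these cultures. The mean of 16 fibroblast markers was 4.78 to 4.83 on the rsEpiSC E6.5 arrays, 5.23 to 5.36 on rsEpiSC E5.75, 5.49 to 5.87 on EpiSC and 4.56 to 4.88 on ESC, against 4.54 to 4.62 on epiblast E6.5 and 4.62 to 4.73 on epiblast E5.75. Of the 16 markers 2 fell in rsEpiSC E5.75 against EpiSC, Tagln (log2 difference -1.85 ± 0.34) and S100a4 (-1.65 ± 0.40). In rsEpiSC E6.5 against EpiSC 4 fell, Tagln (-3.76 ± 0.34), Acta2 (-2.86 ± 0.33), Col1a2 (-2.71 ± 0.63) and Fn1 (-1.50 ± 0.32). In each comparison 12 of the 16 differences were negative and 4 positive, and 0 rose by limma. Mmp2 did not fall, at 8.24 and 8.35 on rsEpiSC E5.75 and 7.71 and 8.20 on rsEpiSC E6.5 against 7.70 and 6.77 on EpiSC. Col1a2 did not fall in rsEpiSC E5.75, at 7.70 and 7.88 against 6.29 and 9.02 on EpiSC. Of the 8 markers of extraembryonic ectoderm and trophoblast, 2 fell in rsEpiSC E6.5 against EpiSC and 3 in rsEpiSC E5.75 against EpiSC. Over all genes 2.56% and 2.31% were lower in these comparisons. The keratin gene Krt18 fell in both (-3.03 ± 0.28 and -3.20 ± 0.28), and so did Krt8 (-2.95 ± 0.52 and -2.73 ± 0.52). Eomes also fell in rsEpiSC E5.75 (-1.07 ± 0.26). Cdx2 did not fall, at 3.57 and 3.73 on EpiSC against 3.81 and 3.83 on rsEpiSC E5.75. Elf5 did not pass, at 2.96 and 2.97 against 2.84 and 3.18 on the same arrays. Of the 8 differences, 7 were negative in rsEpiSC E6.5 and 6 in rsEpiSC E5.75. The part of these cell types in the differences of the targets was not tested.

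**Figure D2:**
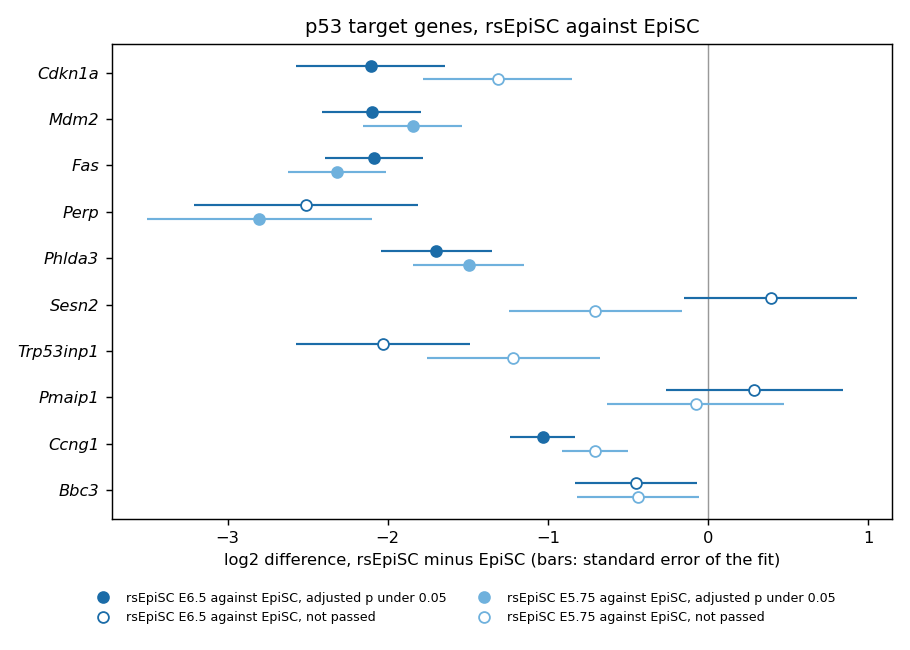
Log2 difference of each p53 target, rsEpiSC minus EpiSC (horizontal axis), for the E6.5 and the E5.75 lines; bars are standard errors of the limma fit, and filled points passed at an adjusted p under 0.05. Mdm2, Fas and Phlda3 were filled in both comparisons, at -1.49 to -2.31, and Sesn2, Pmaip1 and Bbc3 lay between -0.70 and 0.39.

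Among rsEpiSC of different stages, rsEpiSC E6.5 against rsEpiSC E5.75, 0 of the 10 passed in limma, where 0.0857% of all genes did, and 0 had an unadjusted p under 0.05. The differences ran from -0.81 ± 0.54 for Trp53inp1 to 1.09 ± 0.54 for Sesn2. Cdkn1a differed by -0.79 ± 0.47 and Mdm2 by -0.26 ± 0.31. Of the 10 targets 5 were lower in rsEpiSC E6.5 without overlap, as were 22.1% of all genes. Another 2 were higher without overlap, as were 21.3% of all genes.

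In EpiSC against ESC, the primed against the naive line, 1 target rose and 1 fell, with 6.29% of all genes passing, 3.6% higher and 2.7% lower. Fas was 3.77-fold higher in EpiSC (log2 difference 1.92 ± 0.31 SE, adjusted p = 0.00246), and Pmaip1 was 5.84-fold lower (-2.54 ± 0.55, adjusted p = 0.0158). Phlda3 (1.04 ± 0.35, adjusted p = 0.118) and Perp (1.35 ± 0.70, adjusted p = 0.388) were higher on both EpiSC arrays than on both ESC arrays but did not pass. Sesn2 was lower on both EpiSC arrays than on both ESC arrays and did not pass either (-0.63 ± 0.54, adjusted p = 0.707). Ccng1 was also higher on both EpiSC arrays than on both ESC arrays, by an amount near its error. Counted with Fas and Pmaip1, 4 targets were higher without overlap, as were 22.6% of all genes. Likewise 2 targets were lower without overlap, as were 21.2% of all genes. Cdkn1a (0.05 ± 0.47), Trp53inp1 (0.01 ± 0.54), Bbc3 (0.04 ± 0.38), Ccng1 (0.22 ± 0.20) and Mdm2 (0.27 ± 0.31) differed by amounts near or under their errors, and those of Cdkn1a, Trp53inp1 and Bbc3 were below 0 after quantile normalization. Leaving out 1 array at a time lost the Pmaip1 call in 2 of 4 fits, with differences from -3.63 to -1.46, and the Fas call was kept in all 4.

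Most of the p53 targets were higher in culture than in epiblast tissue. Averaged over the 4 cultured and the 2 tissue groups, 9 of the 10 targets rose and 1 fell, in a comparison where 42.3% of all genes passed, 18.1% higher and 24.2% lower. The median of the 10 was 1.23, against -0.14 over all genes. Cdkn1a was 16.3-fold higher in culture (log2 difference 4.03 ± 0.29 SE, adjusted p = 2.49e-06), with cultured arrays between 8.28 and 11.05 (median 10.31) and tissue arrays between 5.25 and 6.96 (median 6.01). Sesn2 was 7.27-fold higher (2.86 ± 0.33, adjusted p = 6.41e-05) and Trp53inp1 6.84-fold higher (2.77 ± 0.33, adjusted p = 8.17e-05).

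Smaller rises were measured for Phlda3 (1.64 ± 0.21, adjusted p = 0.000134), Perp (1.61 ± 0.43, adjusted p = 0.0108), Ccng1 (0.85 ± 0.12, adjusted p = 0.000310), Mdm2 (0.76 ± 0.19, adjusted p = 0.00798), Bbc3 (0.75 ± 0.23, adjusted p = 0.0222) and Fas (0.71 ± 0.19, adjusted p = 0.0106). Pmaip1 was 4.99-fold lower in culture (-2.32 ± 0.34, adjusted p = 0.000309), with cultured arrays between 3.69 and 7.83 (median 4.49) and tissue arrays between 6.61 and 7.92 (median 7.16). Cdkn1a, Phlda3, Sesn2 and Bbc3 had every cultured array above every tissue array, 4 of the 10 where 7.38% of all genes were. With each of the 12 arrays left out in turn, 8 of the 10 passed every time, Perp passed in 10 of 12 fits and Bbc3 in 9 of 12. The tissue arrays also had a narrower distribution of signals than the cultured ones, with an interquartile range of 2.23 to 2.68 against 3.07 to 3.31 in culture, and quantile normalization moved the median of all genes to -0.03 while all 10 targets kept their calls and their directions.

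The mean over cultures joins lines that differed from tissue in different genes. In ESC against the mean of both epiblast groups 7 targets rose and 0 fell, with 25.9% of all genes passing, 12.5% higher and 13.4% lower. In EpiSC against epiblast E5.75, 8 rose and 1 fell, with 24% of all genes passing, 12.6% higher and 11.4% lower. In rsEpiSC E5.75 against epiblast E5.75, 3 rose and 1 fell, with 21.5% passing, 11.5% higher and 10% lower, and in rsEpiSC E6.5 against epiblast E6.5, 4 rose and 1 fell, with 12.5% passing, 6.72% higher and 5.78% lower. These comparisons share tissue arrays, so each gene's values are given side by side.

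The arrest and stress genes Cdkn1a and Sesn2 rose in all 4 lines against tissue, as did Trp53inp1. ESC, a line of day 3.5, had no tissue of its stage here. It was set against the mean of both epiblast groups, so stage and culture differ together there. Cdkn1a differed by 2.84 ± 0.47 in rsEpiSC E6.5, 3.53 ± 0.47 in rsEpiSC E5.75, 4.85 ± 0.47 in EpiSC and 4.84 ± 0.40 in ESC. Sesn2 differed by 3.06 ± 0.54 in rsEpiSC E6.5, 2.19 ± 0.54 in rsEpiSC E5.75, 2.89 ± 0.54 in EpiSC and 3.41 ± 0.47 in ESC, and Trp53inp1 by 2.10 ± 0.54, 1.83 ± 0.54, 3.05 ± 0.54 and 3.58 ± 0.47 in the same lines. The adjusted p of these 12 differences was at most 0.0324. Cdkn1a passed whichever array was left out in these 4 comparisons, whereas Trp53inp1 passed in 1 of 4 for rsEpiSC E5.75 and 0 of 4 for rsEpiSC E6.5, and Sesn2 in 2 of 4 and 3 of 4.

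The feedback gene Mdm2 rose in EpiSC (1.74 ± 0.31, adjusted p = 0.00242) and in ESC (1.55 ± 0.27, adjusted p = 0.00161), while rsEpiSC E6.5 (-0.22 ± 0.31, adjusted p = 0.688) and rsEpiSC E5.75 (-0.10 ± 0.31, adjusted p = 0.841) overlapped with their tissue. Perp likewise rose in EpiSC (3.13 ± 0.70, adjusted p = 0.00824) and in ESC (1.92 ± 0.61, adjusted p = 0.0359), with 0.91 ± 0.70 in rsEpiSC E6.5 and 0.32 ± 0.70 in rsEpiSC E5.75. The Perp call in EpiSC was lost without EpiSC replicate 1 (2.90) or epiblast E5.75 replicate 1 (2.08). In ESC it was lost without ESC replicate 1 (1.25), epiblast E5.75 replicate 1 (1.40) or epiblast E6.5 replicate 2 (1.56), and also after quantile normalization, with array weights, with every probe set tested and in the fit on only the arrays compared. Fas rose in EpiSC alone among the 4 lines (2.38 ± 0.31, adjusted p = 0.000335), with 0.11 ± 0.31 in rsEpiSC E6.5, 0.07 ± 0.31 in rsEpiSC E5.75 and 0.37 ± 0.27 in ESC. For Mdm2, Fas and Perp the difference between the rsEpiSC and EpiSC lines is the one tested directly above.

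Ccng1 rose in EpiSC (1.10 ± 0.20, adjusted p = 0.00301) and ESC (1.12 ± 0.18, adjusted p = 0.000841), and stood at 0.56 ± 0.20 in rsEpiSC E6.5 and 0.40 ± 0.20 in rsEpiSC E5.75 without passing. Phlda3 rose in rsEpiSC E6.5 (1.36 ± 0.35, adjusted p = 0.0254), EpiSC (2.34 ± 0.35, adjusted p = 0.000766) and ESC (1.67 ± 0.30, adjusted p = 0.00195), and rsEpiSC E5.75 did not pass (0.85 ± 0.35, adjusted p = 0.0981). The rise in rsEpiSC E6.5 was lost with any 1 of the 4 arrays left out.

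Of the BH3-only genes, Pmaip1 fell in rsEpiSC E6.5 (-3.17 ± 0.55, adjusted p = 0.00437), rsEpiSC E5.75 (-2.63 ± 0.55, adjusted p = 0.00701) and EpiSC (-2.55 ± 0.55, adjusted p = 0.00695). In ESC its arrays overlapped with tissue (-0.46 ± 0.48, adjusted p = 0.493), and leaving out 1 array moved that difference between -1.55 and 0.62. Bbc3 passed in none of the 4 line comparisons (0.46 to 0.95, adjusted p between 0.0529 and 0.397), although the mean over cultures did.

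**Figure D3:**
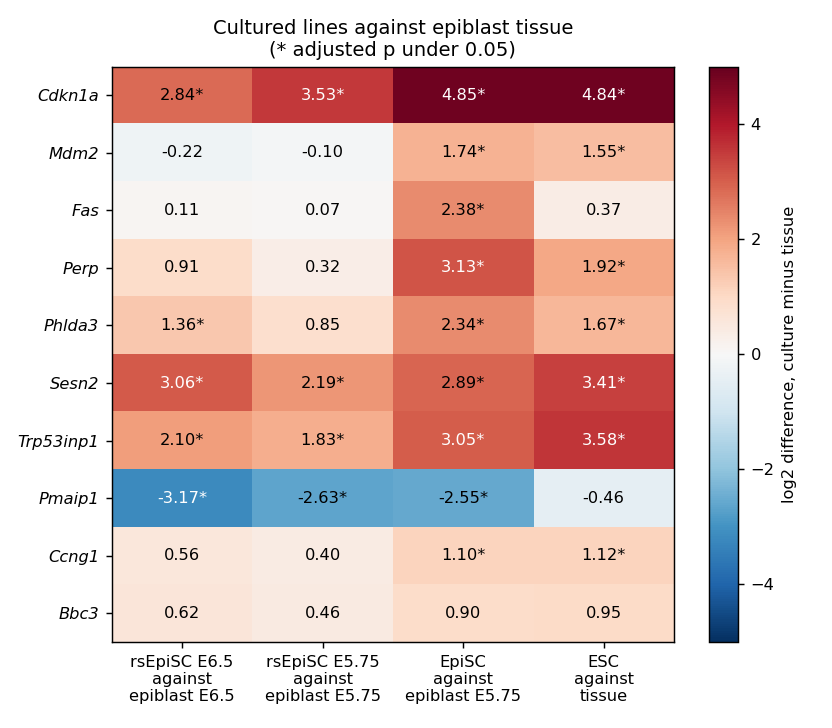
Log2 difference of each p53 target, cultured line minus epiblast tissue (colour and printed value), for rsEpiSC E6.5, rsEpiSC E5.75, EpiSC and ESC; asterisks mark an adjusted p under 0.05. Cdkn1a, Sesn2 and Trp53inp1 were marked in all 4 columns, Mdm2 and Perp in the EpiSC and ESC columns, Fas in the EpiSC column, and Pmaip1 was negative in every column.

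In the tissue itself, epiblast E6.5 against epiblast E5.75, 0 of the 10 passed in limma, with 0.0225% of all genes passing, and 1 had an unadjusted p under 0.05, Ccng1 (-0.49 ± 0.20). The differences ran from -1.09 ± 0.54 for Trp53inp1, whose E5.75 arrays were 2.17 apart, to 0.91 ± 0.55 for Pmaip1. Whether the stage difference of a target was another in rsEpiSC than in tissue was tested as an interaction. There 0 of the 10 passed in limma, 0 had an unadjusted p under 0.05, and 0.00902% of all genes passed.

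The further genes of the pathway were taken from general knowledge in 4 lists, with earlier results of these data known. Their counts beside the shares of all genes are therefore a description and not an independent check. The list of 24 further targets for arrest and repair also holds targets with other functions, such as Slc19a2 and Dcxr. Of these 24, 0 rose and 4 fell in rsEpiSC E5.75 against EpiSC (median -0.63). In rsEpiSC E6.5 against EpiSC 0 rose and 6 fell (median -1.06). Over all genes 1.56% were higher and 2.31% lower in the former comparison, and 1.33% and 2.56% in the latter. Gadd45b, a stress sensor that slows growth, fell by 5.21 ± 0.55 on the log2 scale in rsEpiSC E6.5 (adjusted p = 0.000325) and by 3.65 ± 0.55 in rsEpiSC E5.75 (adjusted p = 0.00254). The polo-like kinase genes Plk2 (-3.07 ± 0.41 and -2.47 ± 0.41) and Plk3 (-2.03 ± 0.40 and -1.80 ± 0.40) fell in both, in the same order of lines. Polk, a DNA polymerase that copies past lesions, fell in rsEpiSC E6.5 (-1.86 ± 0.39, adjusted p = 0.0193). Slc19a2, a thiamine transporter, fell in both (-1.61 ± 0.34 and -1.34 ± 0.34, adjusted p = 0.0198 and 0.0485). Its rsEpiSC E6.5 value is named here after it was seen. Dcxr, a carbonyl reductase, missed the threshold in both (-1.60 ± 0.45 and -1.75 ± 0.45, adjusted p = 0.0777 and 0.0528).

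Of 17 further targets with a part in cell death, 1 rose and 1 fell in each of the 2 comparisons of rsEpiSC with EpiSC. Of all genes 1.33% were higher and 2.56% lower for rsEpiSC E6.5, and 1.56% and 2.31% for rsEpiSC E5.75. Trp53i11 rose by 1.70 ± 0.29 in rsEpiSC E6.5 and 2.08 ± 0.29 in rsEpiSC E5.75, and Steap3, a metalloreductase, fell (-1.50 ± 0.28 and -1.15 ± 0.28). Tnfrsf10b, the mouse death receptor for TRAIL, differed by -2.23 ± 0.58 and -2.22 ± 0.58 and did not pass (adjusted p = 0.0571 and 0.0587). Of 11 further Bcl2 family genes limma passed 0 in either comparison. In each, 3 had an unadjusted p under 0.05, a level at which the share of all genes was not counted.

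Among 20 regulators of p53, 2 rose and 0 fell in each comparison of rsEpiSC with EpiSC. The shares of all genes were 1.33% higher and 2.56% lower for rsEpiSC E6.5, and 1.56% and 2.31% for rsEpiSC E5.75. Hipk2, a kinase that phosphorylates p53, differed by 1.31 ± 0.30 in rsEpiSC E6.5 (adjusted p = 0.0329) and 1.43 ± 0.30 in rsEpiSC E5.75 (adjusted p = 0.0197), and Trp53bp1, a DNA repair scaffold that binds p53, by 1.25 ± 0.27 (adjusted p = 0.0238) and 1.12 ± 0.27 (adjusted p = 0.0411). Mdm4, the partner of Mdm2 in holding p53 down, did not pass (-0.45 ± 0.31 and -0.08 ± 0.31, adjusted p = 0.640 and 0.984). The gene for p53 itself was not analysed here.

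In EpiSC against ESC, limma passed 0 of the 24 arrest and repair genes, and 6 had an unadjusted p under 0.05. The share of all genes at that unadjusted p was not counted, so these 6 cannot be set against a background. Over all genes 3.6% were higher and 2.7% lower. Of the 17 death genes 3 rose and 0 fell, Trp53i11 (1.43 ± 0.29, adjusted p = 0.0101), Steap3 (1.22 ± 0.28, adjusted p = 0.0218) and the BH3-only gene Bcl2l11 (1.10 ± 0.28, adjusted p = 0.0359). Of the Bcl2 family 1 rose, the survival gene Bcl2 itself (3.15 ± 0.35, adjusted p = 0.000194). Of the regulators 1 fell, Mdm4 (-1.15 ± 0.31, adjusted p = 0.0470).

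In culture against tissue, 18 of the 24 arrest and repair genes rose and 0 fell (median 0.93, against -0.14 over all genes). Of all genes 18.1% were higher and 24.2% lower there. Ddit4, an inhibitor of mTORC1 signalling, rose by 3.40 ± 0.22 (adjusted p = 1.74e-06), Gadd45b by 3.04 ± 0.34 (adjusted p = 4.94e-05), the antiproliferative gene Btg2 by 2.96 ± 0.30 (adjusted p = 2.86e-05) and Dcxr by 2.79 ± 0.27 (adjusted p = 2.22e-05), while Sfn (0.42 ± 0.18) and Sesn1 (0.43 ± 0.20), the sestrin related to Sesn2, did not pass. Of the 17 death genes 9 rose and 2 fell (median 0.84), led by Trp53i11 (2.94 ± 0.18), the receptor gene Eda2r (2.87 ± 0.31), Tnfrsf10b (2.04 ± 0.36) and the phosphatase gene Ptp4a3 (1.63 ± 0.24). Of the 11 Bcl2 family genes 7 rose and 0 fell (median 0.90). They include the pore former Bak1 (2.32 ± 0.20), the survival genes Bcl2 (1.48 ± 0.21) and Bcl2l1 (1.40 ± 0.24), and Bad (1.43 ± 0.23), an antagonist of both.

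Of the 20 regulators 2 rose and 6 fell in culture against tissue (median -0.24), in a comparison where 18.1% of all genes were higher and 24.2% lower and the median of all genes was -0.14, so the share that fell was near that of all genes. Lower were among others the damage kinase genes Atr (-1.18 ± 0.17, adjusted p = 0.000272) and Atm (-0.96 ± 0.15, adjusted p = 0.000439) and Usp7 (-1.17 ± 0.16, adjusted p = 0.000203), whose product removes ubiquitin from p53 and Mdm2. Zfp385a, a cofactor of p53, was higher (1.84 ± 0.24, adjusted p = 0.000152), and Mdm4 did not pass (0.41 ± 0.19, adjusted p = 0.0982). Beside these counts, 5 of 16 fibroblast markers rose and 2 fell in culture, and their part in the result was not tested.

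**Figure D4:**
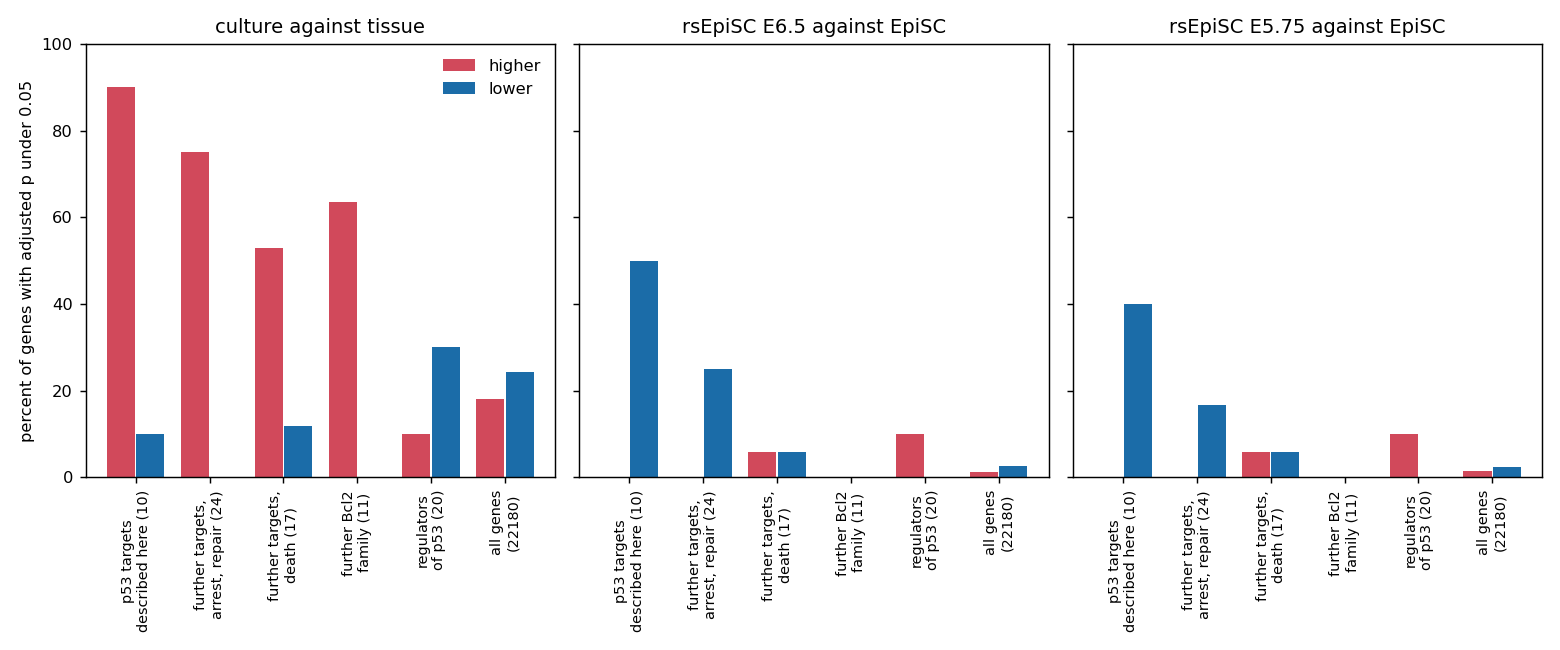
Percent of genes with an adjusted p under 0.05 (vertical axis), higher in red and lower in blue, for the 10 p53 targets, 4 further lists of the pathway (number of measured genes in brackets) and all 22180 genes, in culture against tissue, rsEpiSC E6.5 against EpiSC and rsEpiSC E5.75 against EpiSC. In culture 9 of the 10 targets and 18 of 24 further arrest and repair targets were higher, against 18.1% of all genes. There 6 of 20 regulators were lower, near the 24.2% of all genes. In rsEpiSC E6.5 and E5.75 against EpiSC, 5 and 4 of the 10 targets were lower, against 2.56% and 2.31% of all genes.

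Over the 12 arrays, the targets other than Pmaip1 ran together to different degrees. These correlations are over arrays that share the split between culture and tissue, and they carry no test. Cdkn1a was closest to Trp53inp1 among the 10 (Pearson r = 0.960), and Trp53inp1 was closest to Ccng1 (0.966). Phlda3 and Perp were closest to Ccng1 (0.913 and 0.851), Mdm2 too (0.844), Sesn2 to Cdkn1a (0.877), Bbc3 to Trp53inp1 (0.841) and Fas to Perp (0.759). Pmaip1 correlated below 0 with each of the other nine, from -0.038 with Mdm2 to -0.580 with Cdkn1a.

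Over all named genes, the nearest to Cdkn1a was Cd81, a tetraspanin gene (r = 0.986), and the nearest to Mdm2 was Sqstm1, the autophagy receptor gene (0.962). Fas was nearest to Tnfrsf12a, another receptor of the tumour necrosis factor family (0.958), Perp to Ifitm3 (0.956), Phlda3 to Fndc10 (0.958) and Bbc3 to Itpkc (0.944). Sesn2 was nearest to Mars1, a methionyl-tRNA synthetase gene (0.982), Trp53inp1 to Gtf3c1 (0.976), Ccng1 to Zfyve1 (0.973) and Pmaip1 to Ctsc, the cathepsin C gene (0.976). For Ccng1, the 2nd of the 3 nearest genes was Trp53inp1, the single case in which another of the 10 was among the 3 nearest.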

How the data were processed

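Expression was measured on 12 arrays, 2 for each of 6 groups, grouped by the labels. The deposited table holds log2 signals of 41345 probe sets, which the authors made by RMA in oligo (per the submitters' processing notes, versions not stated there). The array in the labels' protocol is a human one, yet its identifiers match a table of mouse probe sets, which named 23521 probe sets with 1 gene symbol, 1814 with several and 16010 with none. For 1082 genes with more than 1 probe set, the one with the highest mean over the 12 arrays was kept, leaving 22180 genes. The values were used as deposited, with no filter on low signal. The number of arrays limits the precision.

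All genes were fitted with limma 3.58.1 in R 4.3.3 (lmFit on 6 group means over all 12 arrays, eBayes with a variance trend, 6 residual degrees of freedom), and p-values were adjusted by Benjamini and Hochberg over all 22180 genes in each of 11 comparisons, with a threshold of 0.05. The script was tested on simulated data. Culture against tissue weights each group equally. The alternatives were 10 other settings and leaving out each of the 12 arrays in turn. Replicate numbers are shared between groups, but the deviations of same-numbered arrays correlated at only -0.26 to 0.06 over all genes, so they were not treated as pairs. The 10 genes, the pathway lists and the markers were chosen with earlier results of these data known. Named genes of a list are up to 4 that passed and up to 2 that did not, by the size of the difference, and Mdm4 throughout; for each of the 10 targets the 3 nearest genes by Pearson correlation were taken, leaving out predicted genes and small RNAs. Promoter sequences are from RefSeq on GRCm38.p6.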

Additional observations from a re-analysis of the deposited data

How the results depend on the processing

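Only 2 arrays stand behind each group, and leaving out arrays moved the counts of targets that passed, except in the 3 comparisons with a count of 0, those of stage within rsEpiSC, of stage within tissue and of their interaction. In rsEpiSC E5.75 against EpiSC, where 4 of the 10 targets passed, 2 did with every probe set tested, 7 in the fit on only the arrays compared, and 1 to 2 with an array left out, only Fas without rsEpiSC E5.75 replicate 1. In rsEpiSC E6.5 against EpiSC, where 5 passed, 2 did with every probe set tested and 2 to 4 with an array left out, fewest without rsEpiSC E6.5 replicate 1 (Mdm2 and Fas). In EpiSC against ESC, where 2 passed, 1 did with every probe set tested, 1 with only genes above the median signal, which leaves out Fas, 1 with only the arrays compared, and 1 to 2 with an array left out, 1 being Fas without EpiSC replicate 2. In rsEpiSC E5.75 against epiblast E5.75, where 4 passed, 2 did with only the arrays compared and 1 to 5 with an array left out (Cdkn1a alone without rsEpiSC E5.75 replicate 2, Cdkn1a and Pmaip1 without epiblast E5.75 replicate 1). In rsEpiSC E6.5 against epiblast E6.5, where 5 passed, 3 did after quantile normalization, 3 with every probe set tested and 2 to 3 with an array left out. The cause of these changes was not tested, except that testing every probe set adjusts over 41345 probe sets and that leaving out an array leaves 1 in its group, taken to vary like the other groups.

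With the replicate block 3 targets passed in rsEpiSC E5.75 against EpiSC, without Perp, and the counts of the other comparisons did not change; the numbers are shared labels and not pairs. Crossed numbers in ESC and EpiSC, tried after seeing the data, gave 2 targets and 1415 genes against 1396. In culture against tissue 8 to 10 targets passed with an array left out and 9 with array weights, without Bbc3.

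Signs turned for differences that had not passed. After quantile normalization EpiSC against ESC gave -0.051 for Cdkn1a, -0.031 for Trp53inp1 and -0.026 for Bbc3. With an array left out the ranges spanned 0 in rsEpiSC E5.75 against EpiSC for Pmaip1 (-0.59 to 0.43) and Bbc3 (-1.04 to 0.16), and in rsEpiSC E6.5 against EpiSC for Pmaip1 (-0.22 to 0.80) and Bbc3 (-1.05 to 0.15). They did so in rsEpiSC E6.5 against rsEpiSC E5.75 for Fas (-0.020 to 0.48), Perp (-0.38 to 0.96) and Bbc3 (-0.24 to 0.21), and in EpiSC against ESC for Cdkn1a (-0.043 to 0.14), Mdm2 (-0.046 to 0.58), Trp53inp1 (-0.35 to 0.37) and Bbc3 (-0.56 to 0.64). Against tissue they did so for Pmaip1 in ESC (-1.55 to 0.62), for Mdm2 (-0.49 to 0.29), Fas (-0.14 to 0.27) and Perp (-0.73 to 1.37) in rsEpiSC E5.75, and for Mdm2 (-0.44 to 0.0025) and Fas (-0.14 to 0.36) in rsEpiSC E6.5. Of all recomputed differences of single targets, 1163 kept direction and side of the threshold, 67 kept direction but no longer passed, 17 newly passed and 24 changed sign.

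Over the settings that test all 22180 genes, the number that passed was 318 to 1567 in rsEpiSC E5.75 against EpiSC (858 as reported), 242 to 1911 in rsEpiSC E6.5 against EpiSC (863), 558 to 1432 in EpiSC against ESC (1396) and 6577 to 9584 in culture against tissue (9372). Quantile normalization moved the median of all genes in culture against tissue from -0.14 to -0.03. With every probe set tested, 577 of 41345 passed in rsEpiSC E5.75 against EpiSC and 517 in rsEpiSC E6.5 against EpiSC. In that setting 1100 passed in EpiSC against ESC and 3110 in rsEpiSC E6.5 against epiblast E6.5. With only the arrays compared, 1013 genes passed in rsEpiSC E5.75 against EpiSC and 2909 in rsEpiSC E5.75 against epiblast E5.75 (4768 as reported). After quantile normalization 2013 passed in rsEpiSC E6.5 against epiblast E6.5 (2772 as reported).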

Other observations

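The further genes of the p53 pathway were also set against tissue in each line. Of the 24 arrest and repair genes, 6 rose in rsEpiSC E6.5 against epiblast E6.5 (median log2 difference 0.54), 13 in rsEpiSC E5.75 against epiblast E5.75 (1.01), 17 in EpiSC against epiblast E5.75 (1.39) and 15 in ESC against the mean of both tissues (1.34), and 0 fell in any of the 4 by limma. Over all genes 6.72%, 11.5%, 12.6% and 12.5% were higher in the same comparisons, which share tissue arrays, and whether the counts differ between lines was not tested. Ddit4, an inhibitor of mTORC1 signalling, was higher by 3.81 ± 0.37 in rsEpiSC E6.5 (adjusted p = 0.000139), 3.62 ± 0.37 in rsEpiSC E5.75 (adjusted p = 0.000113) and 3.61 ± 0.37 in EpiSC (adjusted p = 8.71e-05). Gadd45b, the stress sensor, was higher by 5.17 ± 0.55 in EpiSC (adjusted p = 0.000108) and 5.36 ± 0.47 in ESC (adjusted p = 1.51e-05), and its difference of 1.52 ± 0.55 in rsEpiSC E5.75 did not pass (adjusted p = 0.0662).

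Of the 17 death genes 3 rose and 0 fell in rsEpiSC E6.5, 6 rose and 2 fell in rsEpiSC E5.75, 10 rose and 2 fell in EpiSC, and 9 rose and 2 fell in ESC. Over all genes 5.78%, 10%, 11.4% and 13.4% were lower in the same comparisons, so the shares of death genes that fell were near those of all genes. In rsEpiSC E5.75, EpiSC and ESC the inflammatory caspase gene Casp1 fell (-1.37 ± 0.29, -0.88 ± 0.29 and -0.77 ± 0.25). The other gene that fell there was the BH3-only gene Bcl2l11 (-1.01 ± 0.28, -1.45 ± 0.28 and -1.99 ± 0.24). Some of these differences are named here after their values were seen. The log2 signals of Casp1 lay between 1.62 and 3.36 over all arrays, and whether they are above background was not tested. Trp53i11 was higher by 4.003 ± 0.29 in rsEpiSC E6.5, 4.47 ± 0.29 in rsEpiSC E5.75 and 2.39 ± 0.29 in EpiSC, and the receptor gene Eda2r by 1.76 ± 0.51, 2.93 ± 0.51 and 3.20 ± 0.51 in the same lines and by 3.46 ± 0.44 in ESC. The pore former Bak1 of the Bcl2 family rose in all 4 lines, by 2.74 ± 0.32 in rsEpiSC E6.5, 1.53 ± 0.32 in rsEpiSC E5.75, 2.17 ± 0.32 in EpiSC and 2.43 ± 0.28 in ESC. Among the 20 regulators, Zfp385a, a cofactor of p53, also rose in all 4 lines, by 1.37 ± 0.39, 2.07 ± 0.39, 2.11 ± 0.39 and 1.82 ± 0.34 in the same order.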
